A study of Mus musculus with 20 samples.

Results

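The proteasome is the protease complex that degrades ubiquitin-tagged proteins, and the genes described here encode its subunits, its activators and a few of its assembly chaperones. They were taken as the protein-coding genes of the read count table whose GENCODE vM21 symbol is Psma, Psmb, Psmc, Psmd or Psme followed by a number, with a mean of at least 1 CPM (counts per library scaled to a common total) over the 20 cerebella. This rule found 43 symbols and kept 41 of the 21897 protein-coding genes. Of the 41, 5 belong to the immunoproteasome (Psmb8, Psmb9, Psmb10, Psme1 and Psme2) and are described apart from the 36 others. The 2 symbols left out were Psma8, with a mean of 0.233 CPM, and Psmb11, with 0.0191 CPM, which encode subunits of testis and thymus. Psmb9 was the member just inside the limit, at 1.95 CPM, followed by Psmb8 at 3.39 CPM. A limit of 0.5 CPM would have kept the same 41 genes, and a limit of 2 CPM would have kept 40.

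The libraries come from the cerebella of C57BL/6J mice, with 1 cerebellum per library. SCA7 140Q/5Q knock-in mice carry an expanded CAG repeat in 1 allele of Atxn7 and model spinocerebellar ataxia type 7, in which Purkinje cells are lost or impaired. The late experiment, labelled 25 weeks, holds 10 SCA7 mice, of which 5 were given AAV-shA4 and 5 AAV-shSCR, and 4 untreated WT mice. The early experiment, labelled 9 weeks, holds 3 untreated WT mice and 3 that were given AAV-shA4. AAV-shA4 is an AAV of the PHP.eB serotype that expresses a short hairpin RNA against CAG repeats from the H1 promoter and eGFP from the CMV promoter, and AAV-shSCR carries a scrambled hairpin in the same vector. Both were injected into the retro-orbital sinus. The methods state that saline was given to untreated mice, and the study describes eGFP in most Purkinje cells but few granule cells. Every SCA7 mouse sequenced here received virus and no late WT mouse did, so genotype and virus cannot be told apart in the comparisons of SCA7 with WT mice. The day from which these weeks were counted is not given in the labels. The study's text counts them from the injection and gives a slightly earlier week for the late mice than the labels do. The weeks given here are those of the labels.

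The libraries hold 31465586 to 54570503 counts, and reads on the 41 genes made up 0.275% to 0.304% of them. The transcripts of Atxn7 from both alleles are counted together and ranged from 44.4 to 53.4 CPM over the 14 late cerebella. Atxn7 did not pass the test between any of the 3 late groups or between the early groups (adjusted p of at least 0.724, edgeR). Nothing in the labels says that the mice are from separate litters, so p-values measure the spread between these mice. In all 32 pairs of mice of 1 group, counts differed by more than sampling noise (chi-squared divided by its degrees of freedom 4.87 to 26.2).

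The proteasome has a barrel-shaped core, the 20S particle, built of outer rings of 7 alpha subunits and inner rings of 7 beta subunits, of which Psmb5, Psmb6 and Psmb7 encode those that cut peptide bonds. A 19S particle caps the core. Its base holds a ring of 6 ATPases that unfold substrates, and its lid removes ubiquitin. Interferons induce Psmb8, Psmb9 and Psmb10, whose products replace those of Psmb5, Psmb6 and Psmb7 in newly built cores and shift the peptides made towards those that fit MHC class I molecules. Interferons also induce Psme1 and Psme2, the alpha and beta subunits of the PA28 activator, which binds the ends of the core in place of the 19S particle. In the healthy brain neurons hold mostly the constitutive form. When proteasome activity drops, the transcription factor Nfe2l1 raises the constitutive subunit genes together.

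The start-site windows of 4 genes are shown because of the calls between SCA7 and WT mice. Psmb8 was called with AAV-shSCR only and Psme1 in both SCA7 groups, and their partners Psmb5 and Psme2 were called in neither. The sequences are from RefSeq on GRCm38.p6, each running from 250 bases before the start of transcription to 50 bases after it, 5′ to 3′ on the strand of the gene. Capitals mark matches on either strand to 3 motifs: ISRE, the interferon-stimulated response element (TTTC, any 2 bases and TTTC), GAS, the interferon-gamma activated site (TTCNNNGAA), and ARE, the antioxidant response element bound by Nfe2l1 and Nfe2l2 (TGACNNNGC). The window of Psmb8 lies at chr17:34197945-34198244 on the plus strand and has a GC content of 55.3%, that of Psme1 at chr14:55578244-55578543 on the plus strand with 66.3%, that of Psmb5 at chr14:54617946-54618245 on the minus strand with 51.7%, and the first of the windows of Psme2 at chr14:55590972-55591271 on the minus strand with 59.7%.
Psmb8: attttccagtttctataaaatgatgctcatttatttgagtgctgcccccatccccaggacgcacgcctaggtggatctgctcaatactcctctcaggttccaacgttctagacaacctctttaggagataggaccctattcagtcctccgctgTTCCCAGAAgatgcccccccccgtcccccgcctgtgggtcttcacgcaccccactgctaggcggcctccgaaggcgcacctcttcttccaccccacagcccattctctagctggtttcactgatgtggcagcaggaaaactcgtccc
Psme1: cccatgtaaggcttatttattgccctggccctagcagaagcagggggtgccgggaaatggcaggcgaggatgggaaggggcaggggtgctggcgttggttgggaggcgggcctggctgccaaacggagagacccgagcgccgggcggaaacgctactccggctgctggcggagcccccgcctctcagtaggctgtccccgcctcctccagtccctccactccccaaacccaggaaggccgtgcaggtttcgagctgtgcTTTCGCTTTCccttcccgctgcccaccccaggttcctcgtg
Psmb5: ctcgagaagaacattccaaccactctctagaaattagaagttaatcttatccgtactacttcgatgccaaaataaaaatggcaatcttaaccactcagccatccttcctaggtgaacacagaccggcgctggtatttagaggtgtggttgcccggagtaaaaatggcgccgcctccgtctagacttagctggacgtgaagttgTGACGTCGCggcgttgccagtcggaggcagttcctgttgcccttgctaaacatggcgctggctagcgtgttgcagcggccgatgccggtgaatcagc
Psme2: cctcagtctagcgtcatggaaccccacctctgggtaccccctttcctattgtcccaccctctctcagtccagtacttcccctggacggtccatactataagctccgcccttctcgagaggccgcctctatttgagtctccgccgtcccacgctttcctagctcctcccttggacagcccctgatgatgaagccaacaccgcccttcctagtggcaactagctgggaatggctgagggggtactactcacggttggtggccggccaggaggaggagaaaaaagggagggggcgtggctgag

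The window of Psmb8 held a GAS match before the start and that of Psme1 an ISRE match after it, the window of Psmb5 held an ARE match, and the window of Psme2 shown held none of the 3. RefSeq windows were found for 35 of the 41 members, all 5 immunoproteasome genes among them. ISRE was found in 1 of the 5 immunoproteasome genes and in 3 of the 30 others (Psmb3, Psmd4 and Psmd9), against 3.44% of all 32851 windows. GAS was found in 1 of the 5 and in 1 of the 30 (Psmd2), against 8.3% of windows. ARE was found in none of the 5 and in 6 of the 30 (Psmb5, Psmb6, Psmc6, Psmd9, Psmd12 and Psme4), against 12.4% of windows. The RefSeq starts of the 4 genes shown lie inside the outermost bounds of the GENCODE genes. These are matches of letters and do not show binding.

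The members lie on 15 chromosomes, with 8 of them on chromosome 11. Only 2 neighbouring pairs are within 100 kb of each other, and both are pairs of immunoproteasome genes. Psmb9 (chr17:34181987-34187764, minus strand) and Psmb8 (chr17:34197721-34201454, plus strand) are 9956 bases apart in the MHC region, with Tap1 beside them. Psme1 (chr14:55578123-55581529, plus strand) and Psme2 (chr14:55587441-55591113, minus strand) are 5911 bases apart and face each other. Psmb10 lies alone at chr8:105935735-105938444. Coordinates are those of GRCm38. Tap1 and Psmb9 share 5.79% of the exonic bases of Psmb9, and Psmb8 shares 14.7% of its own with Gm20496, whose median count over the libraries was 0. Of the 49-base stretches of Psmb5, 55.0% also occur in other genes, chiefly Gm3375, so the reads of Psmb5 could be split or lost in the counting, as could those of Psma5 with 50.6%.

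Levels between genes were compared as CPM per kb of transcript in the 4 untreated WT mice of 25 weeks. Because the files do not say which transcripts the reads came from, each gene was divided both by the length of its longest protein-coding transcript and by the median length of its transcripts, and an order is given only where both hold. Psmb9 and Psmb8 were the lowest of the 41 genes on both scales. On the scale of the longest transcript Psmb9 stood at 1.16 ± 0.122 CPM per kb (SD, n = 4) and Psmb8 at 1.62 ± 0.185. Psme2 at 6.84 ± 0.349, Psma5 at 8.29 ± 0.144 and Psmd10 at 8.34 ± 0.256 followed, and these 3 came next on both scales but in another order. The constitutive Psmb6 stood at 111 ± 1.95 CPM per kb and Psmb7 at 67.3 ± 2.37, while Psmb5 stood at 16.4 ± 0.854. Apart from length, reads shared with other genes could lower the levels of Psmb5, Psma5 and Psme2. Of their 49-base stretches, 55.0%, 50.6% and 28.5% also occur in other genes. Psmb10, the third of the inducible subunits, stood at 11.8 ± 0.358, and its order with Psmb5 turned on the other scale, where Psmb10 was at 19.7 ± 0.595 and Psmb5 at 19.4 ± 1.009.

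Averaged over the genes of a particle in the same mice, the 3 inducible catalytic subunits stood at 4.87 ± 0.1004 CPM per kb of longest transcript and the 3 constitutive ones at 65.0 ± 0.702. The 7 alpha ring genes averaged 39.8 ± 1.40, the 4 structural beta genes 52.0 ± 1.29, the 6 ATPases 71.1 ± 0.632, the 3 other base genes 48.8 ± 0.469 and the 8 lid genes 43.0 ± 0.718. PA28 alpha and beta averaged 10.2 ± 0.395 and the gene of PA28 gamma, Psme3, 43.3 ± 0.666. The inducible subunits were lowest of these particles by both lengths, and the order of the other particles depended on the length used. Psmb8 had 74 to 218 reads per library and Psmb9 36 to 130, so counting error is large for these.

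The median coefficient of variation (CV) between mice of a group was 5.11% to 21.1% for the 5 immunoproteasome genes and 2.87% to 4.27% for the 36 others. The median was higher for the immunoproteasome in each of the 5 groups, but single genes crossed over, as in the late WT mice, where Psmb10 had a CV of 3.02%. For Psmb9 it was 10.52% in the untreated WT mice of 25 weeks, where counting alone gives 12.1%, but 46.4% in the SCA7 mice given AAV-shSCR, where counting gives 11.2%, and 75.5% in the WT mice given AAV-shA4. Psmb8 had a CV of 29.0% with AAV-shSCR and 20.01% with AAV-shA4 in SCA7 mice, and of 53.6% in the WT mice given AAV-shA4. Psme1 had a CV of 7.58% to 10.4% in 4 groups and of 4.06% in the late WT mice.

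**Figure D1:**
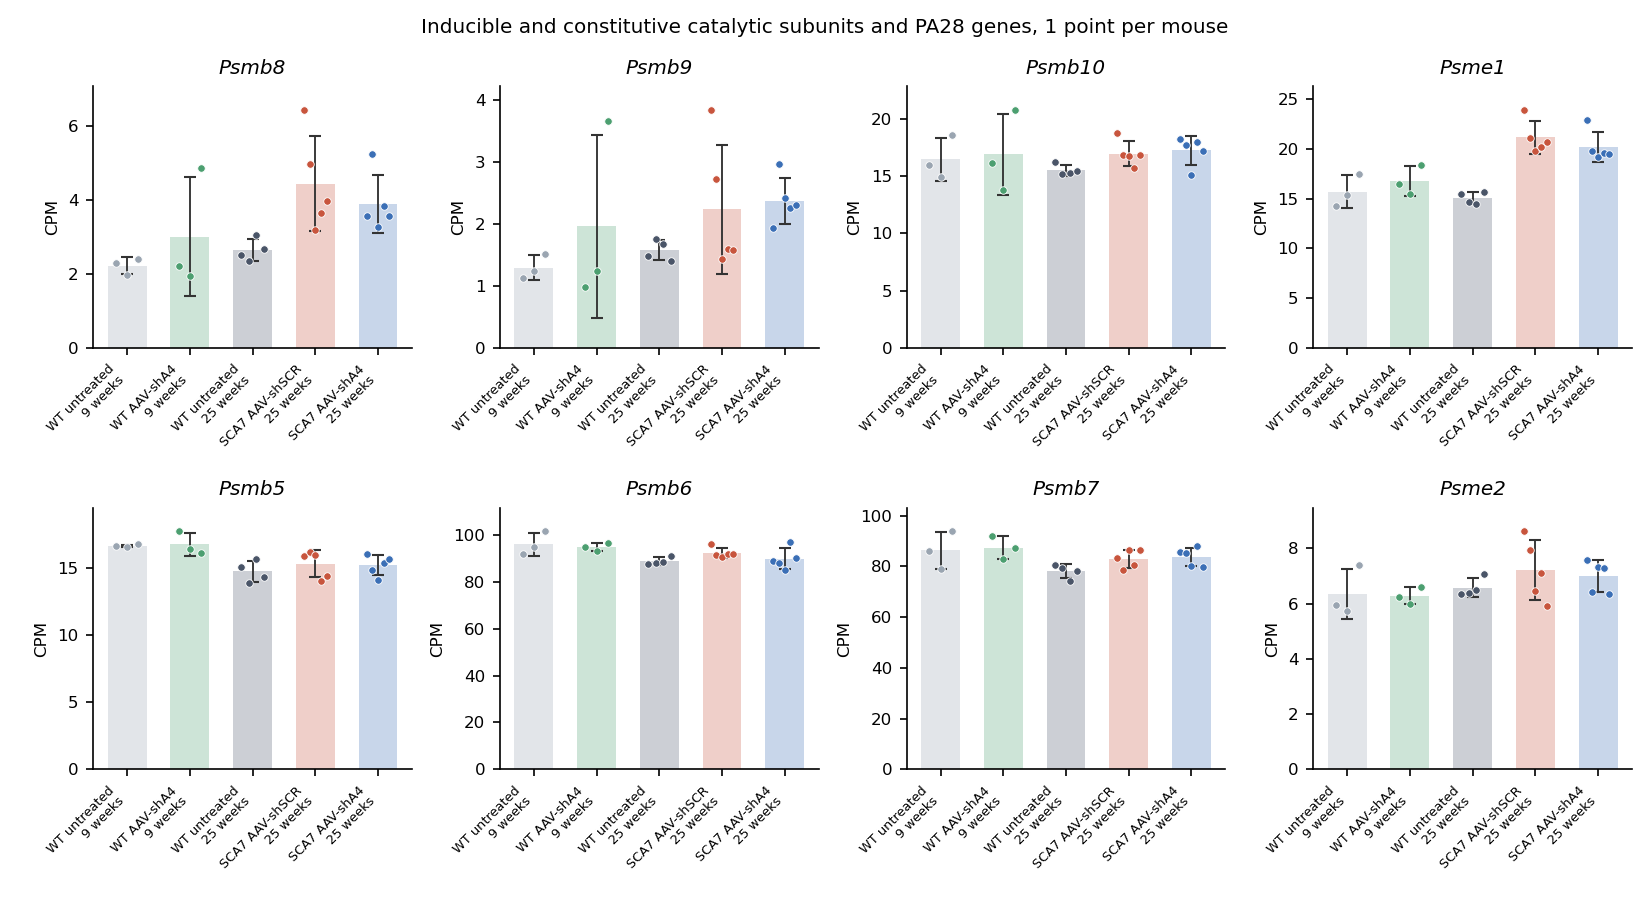
Levels in CPM of the inducible subunits, their constitutive counterparts and the PA28 genes in the 5 groups, each axis starting at 0, with 1 point per mouse, the mean as a bar and the SD as an error bar. Psme1 lay between 19.2 and 24.0 CPM in all 10 SCA7 mice and between 14.4 and 15.7 CPM in the late WT mice, and Psmb8 and Psmb9 of 1 early WT mouse given AAV-shA4 stand far above the other early mice.

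The comparison of AAV-shSCR in SCA7 mice with untreated WT mice shows the genes that differ in the disease model with the control vector. Psmb8 and Psme1 were higher in the SCA7 mice, and none of the 36 other proteasome genes passed the test. Psmb8, the inducible chymotrypsin-like subunit, was measured at 6.43, 4.96, 3.19, 3.66 and 3.96 CPM in the SCA7 mice and at 2.51, 2.34, 3.04 and 2.68 CPM in the WT mice. All 5 SCA7 mice lay above the 4 WT mice, but replicate 3 of the SCA7 mice only just. The means were 4.44 ± 1.29 (SD, n = 5) and 2.64 ± 0.301 CPM (n = 4), a log2 fold change of 0.74 (SE 0.187, 95% interval 0.349 to 1.14) with an adjusted p of 0.0118 in edgeR's quasi-likelihood test over all genes. Without SCA7 AAV-shSCR replicate 1, which had the largest value, the log2 fold change was 0.57 and the adjusted p 0.0263.

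Psme1, PA28 alpha, was measured at 23.9, 21.2, 19.8, 20.2 and 20.7 CPM in the SCA7 mice given AAV-shSCR and at 15.5, 14.7, 14.4 and 15.7 CPM in the WT mice. The lowest SCA7 mouse stood well above the highest WT mouse. The log2 fold change was 0.49 (SE 0.0648, 95% interval 0.352 to 0.627), or 40.4% more, with an adjusted p of 5.42e-05 (edgeR). This gene had a smaller change than Psmb8 but a much smaller error.

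The 3 other immunoproteasome genes did not pass. Psmb9, the inducible counterpart of Psmb6, was at 3.83, 2.72, 1.42, 1.596 and 1.58 CPM with AAV-shSCR and at 1.48, 1.75, 1.67 and 1.39 CPM in WT mice. Replicates 1 and 2 were above all WT mice and the other 3 were among them, and the log2 fold change of 0.50 had an adjusted p of 0.201 (edgeR). Without replicate 1 it was 0.22. Psmb10, the inducible trypsin-like subunit, was at 18.8, 16.9, 16.7, 15.7 and 16.8 CPM against 16.2, 15.2, 15.2 and 15.5 CPM, with a log2 fold change of 0.13 (adjusted p = 0.184, edgeR). Psme2, PA28 beta, was at 8.61, 7.93, 6.46, 7.11 and 5.91 CPM against 6.34, 6.397, 6.499 and 7.07 CPM, with a log2 fold change of 0.13 (adjusted p = 0.421, edgeR). In each of these 3 genes the groups overlapped.

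The constitutive counterparts stayed within narrow limits. Psmb5 was at 15.9, 16.1, 15.98, 14.01 and 14.4 CPM with AAV-shSCR against 15.1, 13.9, 15.6 and 14.3 CPM in WT mice. Psmb6 was at 95.8, 91.2, 90.6, 91.8 and 91.6 CPM against 87.5, 87.9, 88.6 and 91.0 CPM, and Psmb7 at 83.4, 78.7, 86.5, 80.4 and 86.3 CPM against 80.6, 79.5, 74.3 and 78.0 CPM. The groups overlapped in all 3. Their log2 fold changes were 0.054, 0.056 and 0.090, with adjusted p of 0.607, 0.288 and 0.133 (edgeR).

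Over all 41 members, 2 of 41 were called, both higher and both with a fold above 1.3, when 15.5% of the 14862 genes tested were called, 6.89% were called as higher and 4.02% passed both limits. The groups did not overlap in 2 members, Psmb8 and Psme1, while they did not overlap in 16.8% of all genes. The share of members called was thus below the background. Of the 36 others, 22 had a positive and 14 a negative log2 fold change, with a median of 0.013 beside 0.0017 for all genes, and all lay between -0.054 and 0.094. None was called by edgeR or by DESeq2, and 2 had an unadjusted p under 0.05, Psmb7 and the ATPase gene Psmc2 (92.1 against 87.1 CPM, log2 fold change 0.081, adjusted p = 0.0786). The 95% intervals of these 36 genes reached from -0.158 to 0.247, so that a change by the fold of 1.3 (0.38 on the log2 scale) lay outside the interval of every one.

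By particle, the median log2 fold change was 0.0017 for the alpha ring, 0.040 for the structural beta genes, 0.056 for the constitutive catalytic genes, 0.017 for the ATPases, 0.020 for the other base genes, 0.0034 for the lid and -0.014 for the assembly chaperones. Among those furthest from 0 by their p, the ATPase gene Psmc3 stood at 0.060 (adjusted p = 0.208), the ATPase gene Psmc6 at -0.050 (adjusted p = 0.338) and the lid gene Psmd11 at -0.047 (adjusted p = 0.361, edgeR). Psme3, whose product PA28 gamma works in the nucleus, stood at -0.019, and Psme4, the activator PA200, at -0.0031. None of these particles had a called gene.

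**Figure D2:**
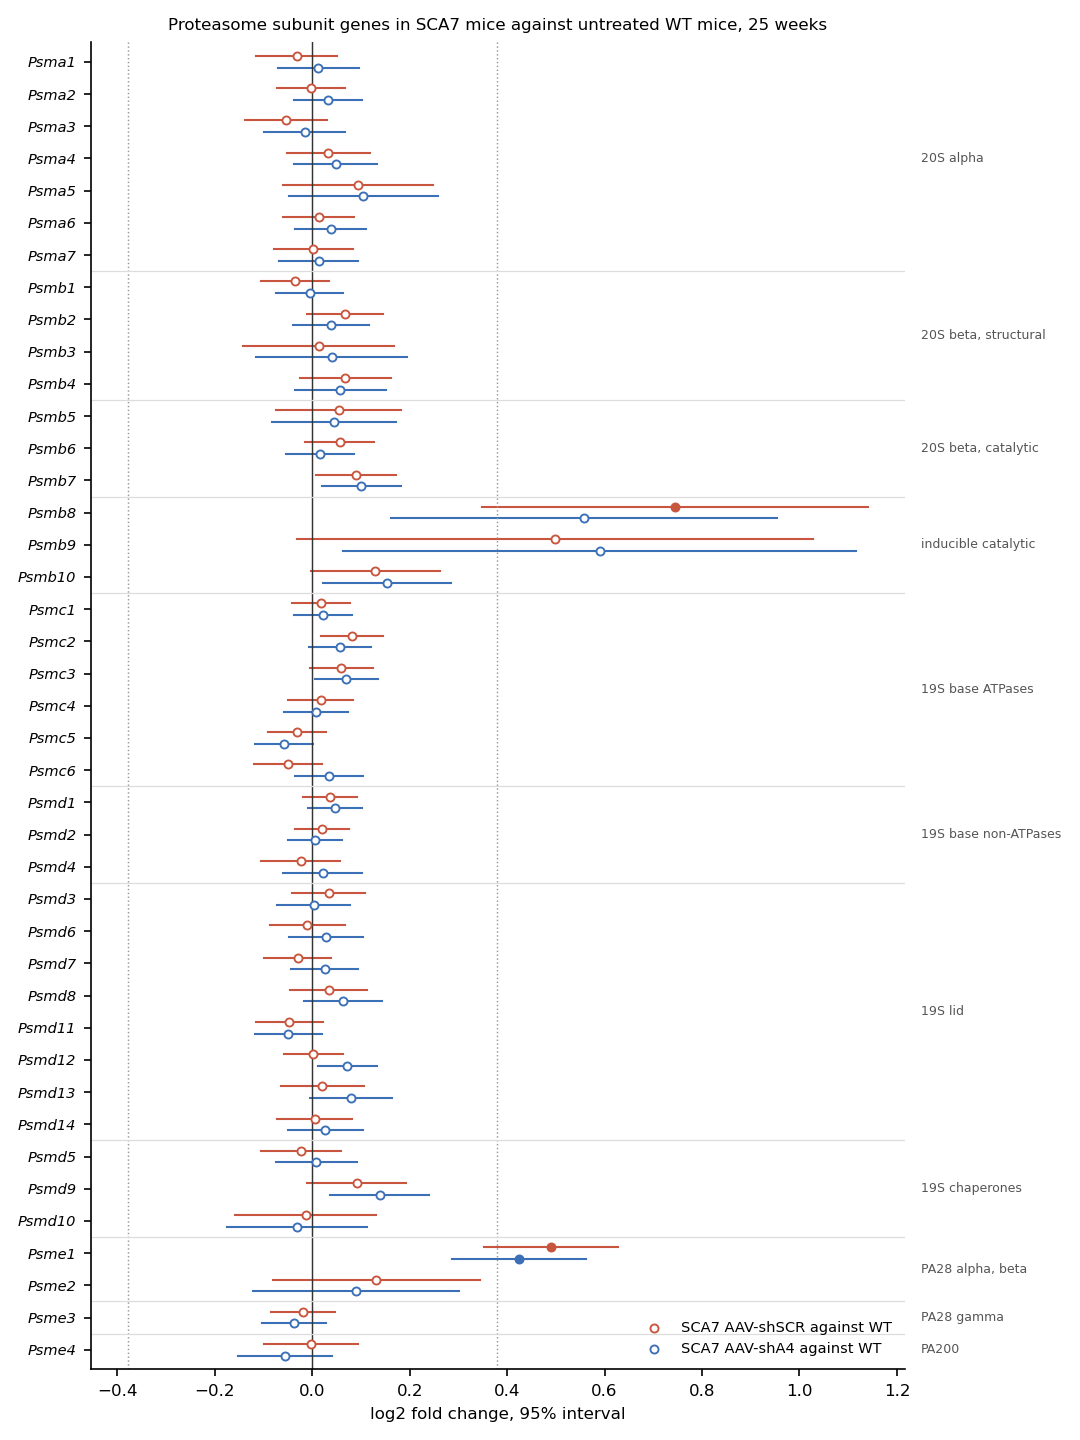
Log2 fold changes of the 41 genes with their 95% intervals in the late experiment, ordered by particle, in red for SCA7 AAV-shSCR and in blue for SCA7 AAV-shA4, both against the same WT mice. Filled points have an adjusted p under 0.05 and dotted lines mark a fold of 1.3. Psmb8 and Psme1 are filled for AAV-shSCR against WT and Psme1 for AAV-shA4 against WT, while the 36 genes outside the immunoproteasome lie within 0.14 of 0 on the log2 scale.

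SCA7 mice given AAV-shA4 were compared with the same 4 WT mice, so this comparison is not independent of the one above and its values are given beside it. Psme1 was again higher, at 22.9, 19.9, 19.2, 19.7 and 19.5 CPM, all above the 14.4 to 15.7 CPM of the WT mice. The log2 fold change was 0.42 (SE 0.0648, 95% interval 0.288 to 0.562), or 34.2% more, with an adjusted p of 0.000256 (edgeR). It was the 1 member called, and it also passed the fold of 1.3.

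Psmb8 was at 3.57, 5.24, 3.26, 3.84 and 3.55 CPM in the SCA7 mice given AAV-shA4. These 5 values were all above the WT mice, but the log2 fold change of 0.56 missed the threshold, with an adjusted p of 0.0591 in edgeR. DESeq2 gave an adjusted p of 0.0297. In edgeR Psmb8 was called in 2 of the 14 fits that left out 1 mouse. These were the fits without SCA7 AAV-shSCR replicate 1 (adjusted p = 0.0256) or replicate 3 (adjusted p = 0.0449). Both mice are outside this comparison and enter only through the shared fit. Without the mouse of the largest value, AAV-shA4 replicate 2, the log2 fold change was 0.43 with an adjusted p of 0.140.

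Psmb9 was at 1.93, 2.95, 2.42, 2.25 and 2.29 CPM, all above the WT mice, with a log2 fold change of 0.59 and an adjusted p of 0.137 (edgeR). It was called only without SCA7 AAV-shSCR replicate 1, at 0.0476. Unlike in the mice given AAV-shSCR, where 3 of 5 values were at the WT level, the values with AAV-shA4 were close together. The difference between the SCA7 groups itself did not pass, as given below. Psmb10 was at 18.2, 17.7, 15.1, 17.9 and 17.2 CPM, and Psme2 at 7.59, 6.43, 7.32, 7.27 and 6.35 CPM. Both overlapped the WT mice and had log2 fold changes of 0.15 (adjusted p = 0.123) and 0.089 (adjusted p = 0.626, edgeR).

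Psmb5 was at 16.01, 14.9, 14.1, 15.3 and 15.7 CPM with AAV-shA4, Psmb6 at 88.9, 88.0, 84.9, 96.9 and 89.9 CPM and Psmb7 at 85.7, 85.3, 80.0, 87.9 and 79.9 CPM. Their log2 fold changes against WT mice were 0.045, 0.016 and 0.10, with adjusted p of 0.697, 0.819 and 0.0987 (edgeR).

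Of the 41 members 1 was called, when 13.6% of all genes were called, 5.47% as higher, and 3.45% passed both limits. The groups did not overlap in 4 members, Psmb8, Psmb9, Psme1 and Psmc3, all higher in the SCA7 mice, against 13.4% of all genes in either direction. Of the 36 others, 29 were above and 7 below 0, with a median of 0.027 beside 0.0061 for all genes and a range of -0.057 to 0.138. None was called by edgeR or DESeq2, and 4 had an unadjusted p under 0.05, Psmb7, Psmc3, Psmd9 and Psmd12. The chaperone gene Psmd9 stood at 0.138 (32.2 against 29.2 CPM, adjusted p = 0.0686) and the lid gene Psmd12 at 0.072 (adjusted p = 0.117, edgeR). Of those below 0, which had larger p, the ATPase gene Psmc5 stood at -0.057 (adjusted p = 0.207) and the lid gene Psmd11 at -0.049 (adjusted p = 0.364, edgeR). Psmd9 shares 25.5% of its exonic bases with a gene on the other strand, and whether the counting used strand is not stated.

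AAV-shA4 against AAV-shSCR in SCA7 mice is the direct test of the hairpin. No proteasome gene differed in this test, and edgeR called no gene at all (0.00% of 14862 genes), while 1222 genes had an unadjusted p under 0.05. DESeq2 called 23 genes, none of them a member. The log2 fold change (AAV-shA4 minus AAV-shSCR) was -0.19 for Psmb8 (95% interval -0.551 to 0.177) and -0.065 for Psme1 (-0.193 to 0.0626). For Psmb9 it was 0.092, and it went from -0.035 to 0.38 as single mice were left out. The interval of Psmb8 was wide, whereas those of the 36 others lay between -0.155 and 0.173. Of these 36, the ATPase gene Psmc6 (91.6 against 86.4 CPM, 0.084, adjusted p = 0.532) and the lid gene Psmd12 (0.070, adjusted p = 0.550) had an unadjusted p under 0.05, and of those below 0 Psme4 was at -0.053, Psmb6 at -0.040 and Psmc5 at -0.026.

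The genes outside the immunoproteasome with the smallest p in the late comparisons show how small these differences were. Psmc2 was at 92.2, 90.5, 89.5, 95.5 and 92.8 CPM with AAV-shSCR, at 89.0, 92.8, 89.9, 93.3 and 88.2 CPM with AAV-shA4 and at 87.2, 85.8, 84.4 and 91.1 CPM in WT mice. WT replicate 4 was high among its group, and without it Psmc2 was called in AAV-shSCR against WT (adjusted p = 0.0438, edgeR). Psmc3 was at 136, 131, 141, 138 and 141 CPM, at 140, 135, 134, 147 and 138 CPM and at 131, 130, 133 and 134 CPM in the same order of groups. Its AAV-shA4 and WT groups did not overlap, but only narrowly. Psmc6 was at 85.9, 83.0, 86.0, 85.8 and 91.0 CPM, at 93.8, 88.4, 93.7, 91.5 and 90.7 CPM and at 92.0, 92.3, 84.8 and 88.6 CPM. The WT mice spanned most of the range of both SCA7 groups. Psmc5 was at 166.1, 160.5, 166.5, 159.8 and 162.8 CPM, at 157.5, 156.4, 155.1, 164.2 and 168.4 CPM and at 165.6, 164.7, 171.3 and 165.6 CPM, with overlap throughout.

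Among the lid genes and the assembly chaperone genes, Psmd9 was at 31.5, 33.0, 30.0, 30.4 and 30.6 CPM with AAV-shSCR, at 31.8, 32.3, 29.6, 35.5 and 31.6 CPM with AAV-shA4 and at 30.6, 28.03, 28.8 and 29.3 CPM in WT mice. The lowest mouse with AAV-shA4 lay within the WT range. Psmd11 was at 70.8, 71.8, 70.5, 69.9 and 68.8 CPM, at 68.7, 73.3, 68.6, 74.2 and 67.0 CPM and at 73.2, 70.8, 72.8 and 74.2 CPM in the same order. Psmd12 was at 66.7, 68.0, 65.9, 66.2 and 69.6 CPM, at 68.1, 69.9, 70.5, 70.8 and 73.9 CPM and at 68.6, 66.5, 66.3 and 67.5 CPM. The groups overlapped in both. Psme4 was at 86.1, 92.5, 93.3, 98.3 and 94.6 CPM, at 90.4, 83.2, 96.4, 89.1 and 89.1 CPM and at 86.4, 94.9, 98.8 and 92.8 CPM, again with overlap.

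Each inducible subunit takes the place of 1 constitutive subunit, so their log2 ratio was computed in every mouse and compared by exact two-sided permutation tests, adjusted over 15 tests of 3 ratios in 5 comparisons. The ratio of Psmb8 to Psmb5 was -2.44 ± 0.106 in the WT mice (n = 4), -1.80 ± 0.362 with AAV-shSCR and -1.96 ± 0.270 with AAV-shA4 (n = 5 each). Both SCA7 groups lay wholly above the WT mice. The differences were 0.64 (exact permutation p = 0.0159, adjusted 0.0794) and 0.48 (exact permutation p = 0.00794, adjusted 0.0794), where 0.00794 is the smallest p the design allows. The ratio of Psmb9 to Psmb6 was higher by 0.33 with AAV-shSCR (exact permutation p = 0.373) and by 0.54 with AAV-shA4 (exact permutation p = 0.0159, adjusted 0.0794). That of Psmb10 to Psmb7 differed by 0.038 and 0.049 (exact permutation p = 0.5 and 0.278). None of the 15 ratios passed after adjustment. Between the SCA7 groups the 3 differences were -0.15, 0.21 and 0.011 (exact permutation p of at least 0.444). Reads of Psmb5 could have been split or lost in the counting, as given above.

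PA28 is a ring of alpha and beta subunits, yet of the 2 genes Psme1 alone was called as higher in SCA7 mice. The log2 fold change of Psme2 was also above 0, at 0.13 with AAV-shSCR and 0.089 with AAV-shA4. The log2 ratio of Psme1 to Psme2 was examined after these values had been seen. It was 1.19 ± 0.0653 in WT mice, 1.55 ± 0.152 with AAV-shSCR and 1.52 ± 0.110 with AAV-shA4. The differences were 0.37 and 0.33, with an exact permutation p of 0.00794 in each, the smallest possible, and 0.0198 after adjustment over the 5 comparisons. Leaving out single mice gave differences of 0.31 to 0.40 and of 0.31 to 0.37. Since the ratio was chosen for this difference, these p-values are descriptions. Of the sequence of Psme2, 28.5% of 49-base stretches also occur in other genes, chiefly Psme2b, against 5.68% for Psme1. Reads of Psme2 could thus have been lost or shared in the counting, and whether this differed between groups was not tested.

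**Figure D3:**
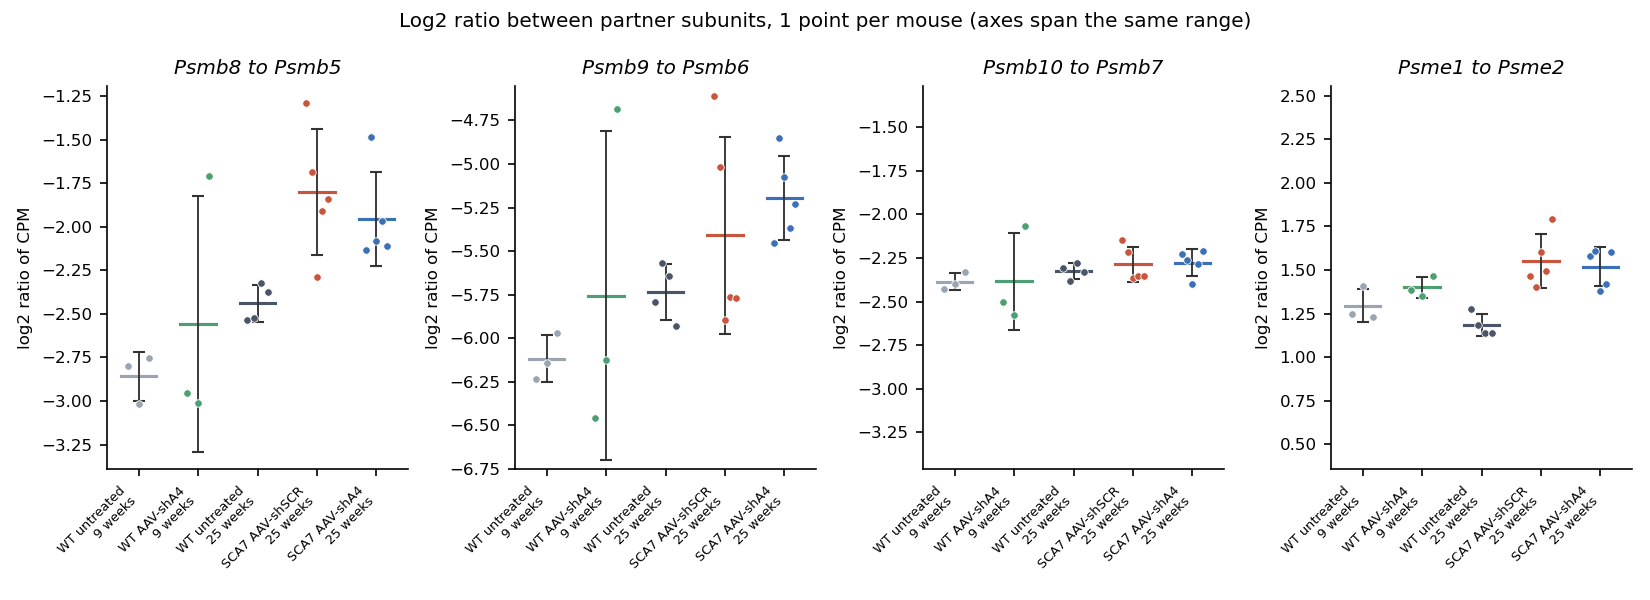
Log2 ratio of CPM (with 0.1 CPM added) between each inducible subunit and its constitutive counterpart and between Psme1 and Psme2, with 1 point per mouse, the mean as a line and the SD as an error bar, on axes that span the same range. All 10 SCA7 mice lie above the 4 late WT mice in Psmb8 to Psmb5 and in Psme1 to Psme2, and the ratio of Psmb10 to Psmb7 is nearly level over the late groups.

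The genes that load peptides on MHC class I, which use what the proteasome cuts, and their regulators formed a list of 11. In SCA7 mice given AAV-shSCR, 15.5% of all genes were called, 6.89% as higher. The median log2 fold change of the 11 was 0.40, beside 0.0017 for all genes. Of the 11, 7 were called, all higher. Among them were H2-K1, an MHC class I heavy chain (50.1 against 31.8 CPM, log2 fold change 0.66), B2m, its light chain (141 against 102.1 CPM, 0.47), the peptide transporter subunit Tap2 (0.40), the trimming peptidase Erap1 (0.25), and the regulators Nlrc5 (1.25) and Irf7 (1.11), with adjusted p of 0.000825 to 0.0198. Tap1, the neighbour of Psmb9, had a log2 fold change of 0.53 and an adjusted p of 0.130, and H2-D1, Tapbp and Irf1 did not pass either. With AAV-shA4, 6 of 11 were called, all higher, when 13.6% of all genes were called and 5.47% as higher. The median of the 11 was 0.34, and the log2 fold changes were 0.67 for H2-K1 and 0.42 for B2m. Between the SCA7 groups edgeR and DESeq2 called 0 of 11, with none at an unadjusted p under 0.05. By mouse, the summed level of the 11 genes was 577 CPM in SCA7 AAV-shSCR replicate 1, the mouse with the most Psmb8, Psmb9, Psmb10, Psme1 and Psme2 of the 10 SCA7 mice, against 409 to 471 CPM in the other mice of its group, 415 to 497 CPM with AAV-shA4 and 356 to 383 CPM in WT mice.

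Other cell types could carry these transcripts, and in bulk tissue fewer cells of a type and less RNA per cell cannot be told apart. Of 10 microglia markers, none was called in either SCA7 group against WT mice by edgeR, with 1 at an unadjusted p under 0.05 in each, and their summed level was 189 to 236 CPM with AAV-shSCR, 194 to 240 CPM with AAV-shA4 and 194 to 221 CPM in WT mice. The highest mouse of each SCA7 group in microglia markers, AAV-shSCR replicate 1 and AAV-shA4 replicate 2, was also the highest of its group in Psmb8 and Psmb9. The highest late WT mouse in microglia markers, replicate 1 at 221 CPM, was not the highest of its group in Psmb8 or Psmb9. T cell markers were near 0, with summed levels of at most 1.52 CPM over 6 genes in the late mice, and only 1 of the 6 had enough reads for the test. Blood markers summed to 2.17 to 27.0 CPM with AAV-shSCR, with the highest value in replicate 1, to 4.38 to 8.27 CPM with AAV-shA4 and to 2.25 to 5.18 CPM in WT mice, and 1 of 5 was called with AAV-shSCR.

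Of the neural lists, 9 of 9 Purkinje cell markers were lower in both SCA7 groups, with sums of 6868 to 7689 CPM with AAV-shSCR and 6943 to 8120 CPM with AAV-shA4 against 9904 to 11193 CPM in WT mice. Among 10 granule cell markers 1 was called as higher and 3 as lower with AAV-shSCR, and 1 as higher and 4 as lower with AAV-shA4. By sign alone, 6 of the 10 were lower with AAV-shSCR and 7 with AAV-shA4. In each SCA7 group 3 of 8 astrocyte and 3 of 6 oligodendrocyte markers were called as lower. By sign alone, all 8 astrocyte markers were lower in both groups. Of the 6 oligodendrocyte markers, 6 were lower by sign with AAV-shSCR and 4 with AAV-shA4. Over all genes, 15.5% with AAV-shSCR and 13.6% with AAV-shA4 were called in either direction. Of 5 endothelial markers 1 was called as higher and 2 as lower with AAV-shSCR, and 2 as higher and 2 as lower with AAV-shA4. In either group 0 of 4 choroid plexus markers were called, with none at an unadjusted p under 0.05. Their sums varied widely between mice, from 629 to 2885 CPM with AAV-shSCR, 34.2 to 3261 CPM with AAV-shA4 and 1019 to 3790 CPM in WT mice. The part of these cell types in the immunoproteasome results was not tested.

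The partners of the proteasome that are not members were given by a list of 20 genes for assembly factors, shuttle receptors, deubiquitinases and regulators. With AAV-shSCR 4 of 20 were called: Nfe2l2 was higher (log2 fold change 0.25, adjusted p = 0.0328), as was Ddi2, the protease that activates Nfe2l1 (0.16, adjusted p = 0.00412), and Nfe2l1 (-0.18, adjusted p = 0.00161) and the shuttle receptor Ubqln1 (-0.085, adjusted p = 0.0293) were lower. With AAV-shA4 2 of 20 were called, Nfe2l2 higher (0.30, adjusted p = 0.0122) and Ubqln1 lower (-0.079, adjusted p = 0.0457). The median of the 20 was -0.028 and -0.017. These counts are near or below the 15.5% and 13.6% of all genes called. Without WT replicate 3 the count for AAV-shSCR was 2, and for AAV-shA4 it was 1 in 9 of the 14 fits that left out 1 mouse. Between the SCA7 groups edgeR and DESeq2 called 0 of 20, with 4 at an unadjusted p under 0.05 in edgeR.

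The early experiment sets AAV-shA4 against no treatment in WT mice and asks what the vector does without the disease allele. No proteasome gene was called, and edgeR called 10 of 14733 genes (0.0679%). Of the members 0 had an unadjusted p under 0.05, against 11.1% of all genes, and DESeq2 called 130 genes and 0 members. The 3 libraries with AAV-shA4 had 36245752 to 39208298 counts and the 3 others 47455917 to 49212593, without overlap.

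Among these 6 mice, WT AAV-shA4 replicate 3 stood apart in the immunoproteasome. Its Psmb8 was at 4.85 CPM, when the other mice given AAV-shA4 were at 2.2 and 1.95 CPM and the untreated mice at 2.30, 1.96 and 2.39 CPM. Its Psmb9 was at 3.66 CPM, against 0.978 and 1.24 CPM and against 1.118, 1.24 and 1.52 CPM. The other mice of both groups were thus alike. Psmb10 was at 16.1, 13.8 and 20.8 CPM against 15.9, 14.9 and 18.5 CPM. Psme1 was at 16.5, 15.4 and 18.4 CPM against 14.3, 15.4 and 17.5 CPM, and Psme2 at 6.25, 6.00 and 6.60 CPM against 5.94, 5.74 and 7.39 CPM. In Psme1 and Psme2 replicate 3 was in or close to the range of the untreated mice. The log2 fold change of Psmb8 was 0.43 with this mouse and -0.10 without it, that of Psmb9 0.59 and -0.23, and that of Psmb10 0.033 and -0.14.

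The same mouse had the highest sums of 3 lists among the 6: T cell markers at 3.74 CPM, when the others had 0.305 to 0.570 CPM, the 11 genes of MHC class I loading at 459 CPM, against 318 to 369 CPM, and microglia markers at 215 CPM, against 172.2 to 187 CPM. Its blood markers, at 4.45 CPM, were within the range of the others, 2.61 to 8.81 CPM. Of the 11 loading genes and the 10 microglia markers 0 were called by edgeR in this comparison, with 3 and 2 at an unadjusted p under 0.05, and DESeq2 called 1 of the 11. The part of these cells in the levels of Psmb8 and Psmb9 of this mouse was not tested.

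The 36 others had log2 fold changes of -0.099 to 0.089 in the early experiment, with a median of 0.014 and 95% intervals reaching from -0.215 to 0.275. Psmb5 was at 17.7, 16.4 and 16.1 CPM with AAV-shA4 and at 16.6, 16.6 and 16.7 CPM without, Psmb6 at 94.6, 93.1 and 96.4 against 91.8, 94.7 and 101 CPM, and Psmb7 at 91.9, 82.9 and 87.2 against 85.9, 79.2 and 93.8 CPM. The groups did not overlap in 4 members, Psme3 above (0.084, adjusted p = 0.547) and Psmc4, Psmc5 (-0.093, adjusted p = 0.510) and Psmd3 (-0.099, adjusted p = 0.512, edgeR) below, while they did not overlap in 16.0% of all genes. Psme3 was at 126.1, 119 and 117 CPM with AAV-shA4 and at 116, 113 and 114 CPM without, Psmc5 at 164.5, 167.5 and 159.2 against 173.04, 168.3 and 181.6 CPM, and Psmd3 at 148, 140 and 156 against 160, 159 and 157 CPM. In each of these the nearest mice of the groups lay close together. The chaperone gene Psmd5 was at 58.7, 56.0 and 53.9 against 55.1, 51.4 and 53.0 CPM (0.077, adjusted p = 0.617, edgeR). With 3 mice against 3, the exact permutation p of the 3 catalytic ratios could not go below 0.1, and the differences of 0.30, 0.36 and 0.0029 had p of 0.8, 0.8 and 1.

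Untreated WT mice of 25 and of 9 weeks came from different experiments, so time and experiment cannot be told apart. Of the 41 members 8 were called, 7 lower and 1 higher at 25 weeks, none of them an immunoproteasome gene. All 8 differences were small. None reached a fold of 1.3, when 5.14% of all 14875 genes passed both limits. By the adjusted p alone 23.0% of all genes were called, 11.8% as higher and 11.1% as lower, so that a count of 8 of 41 is close to the background. With the replicate number as a block 1 member was called, Psmd3.

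The lid gene Psmd3 was at 135, 141, 138 and 144 CPM at 25 weeks and at 160, 159 and 157 CPM at 9 weeks, with a log2 fold change of -0.18 (SE 0.0324, adjusted p = 0.00388, edgeR). The lid gene Psmd8 was at 107, 116, 108 and 114 CPM against 130, 122 and 136 CPM (-0.21, adjusted p = 0.00784). Psmb4, a structural beta gene, was at 92.2, 92.7, 89.0 and 93.1 CPM against 102.1, 101.6 and 108 CPM (-0.18, adjusted p = 0.00634, edgeR). The groups did not overlap in any of the 3 genes, but in Psmd8 the nearest mice were at 116 and 122 CPM. Psme4, the activator PA200, went the other way, at 86.4, 94.9, 98.8 and 92.8 CPM against 82.1, 81.4 and 80.5 CPM (0.20, adjusted p = 0.0113, edgeR).

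These 4 genes were called in all 7 fits that left out 1 mouse. The other 4 lost the call in at least 4 of the 7 and are less certain: Psmb2 (54.4 ± 1.598 against 60.1 ± 3.08 CPM, -0.14), Psmc3 (132 ± 1.85 against 141 ± 3.38 CPM, -0.098), Psmd9 (29.2 ± 1.08 against 33.6 ± 2.48 CPM, -0.20) and Psmd11 (72.8 ± 1.43 against 78.8 ± 2.79 CPM, -0.11), with adjusted p of 0.0320 to 0.0457 (edgeR). Psmd1, a scaffold of the base, had the next smallest p of those with a positive difference, at 117, 115, 113 and 110 CPM at 25 weeks and at 109, 108 and 112 CPM at 9 weeks (0.056, adjusted p = 0.252, edgeR).

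Of the 36 others, 29 were lower and 7 higher at 25 weeks, with a median log2 fold change of -0.077 beside 0.0059 over all genes. All 7 alpha ring genes and all 6 ATPases were below 0, with medians of -0.077 and -0.068, as were Psmb5 (-0.17, adjusted p = 0.0648), Psmb6 (-0.11, adjusted p = 0.0651) and Psmb7 (-0.14, adjusted p = 0.0849, edgeR), which missed the threshold. The summed level of the 36 genes was 2824 ± 25.6 CPM at 25 weeks (n = 4) and 2969 ± 103 CPM at 9 weeks (n = 3). It was 2848 ± 28.5 CPM with AAV-shSCR and 2867 ± 63.5 CPM with AAV-shA4 in the late SCA7 mice (n = 5 each), and 2970 ± 85.9 CPM in the early WT mice given AAV-shA4 (n = 3). The mean sums of the early groups lay close together, as did those of the late groups, but single mice overlapped between the experiments. The sums ran from 2807 to 2971 CPM in the SCA7 mice given AAV-shA4 and from 2861 to 3067 CPM in the early untreated WT mice. Between the untreated WT mice of 25 and 9 weeks, the groups did not overlap in 14 members, 13 lower and 1 higher, against 33.8% of all genes.

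The immunoproteasome genes were not called between the experiments, with log2 fold changes of 0.25 for Psmb8, 0.28 for Psmb9, -0.084 for Psmb10, -0.057 for Psme1 and 0.049 for Psme2. The ratio of Psmb8 to Psmb5 was higher by 0.42 at 25 weeks, without overlap, with the smallest p that 4 mice against 3 allow (exact permutation p = 0.0286, adjusted 0.107). Of the 11 genes of MHC class I loading 4 were called as higher, beside 23.0% of all genes called in either direction: Tap2 (0.37), B2m (0.25), H2-K1 (0.30) and Nlrc5 (0.84). This count was 1 without replicate 1 or 2 of 9 weeks or replicate 3 of 25 weeks, 2 without replicate 4 and 6 without replicate 1 of 25 weeks. Of the 20 partners 4 were called, 1 higher and 3 lower, which is near the 23.0% of all genes, and 1 or 2 were called in each of the 7 fits that left out 1 mouse. Among the 4, Ecpas, which inhibits the proteasome, was higher (0.29, adjusted p = 0.00129), and Pomp, the assembly factor of the core, and Adrm1, a ubiquitin receptor, were lower (-0.11 and -0.22).

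Cell type markers moved between the experiments as well. All 6 oligodendrocyte markers were lower at 25 weeks (sums of 5515 to 6530 against 7730 to 8024 CPM). Of 5 blood markers 3 were called as lower, while 4 of 10 microglia markers were called as higher (194 to 221 against 172.2 to 179 CPM). Over all genes 23.0% were called in either direction. Among the others 1 of 9 Purkinje cell and 1 of 5 endothelial markers were called as higher, and 2 of 10 granule cell and 1 of 8 astrocyte markers as lower. Of the choroid plexus markers 0 of 4 were called, with none at an unadjusted p under 0.05, and their sums varied widely (1019 to 3790 against 851 to 1906 CPM). The part of these cells in the lower proteasome genes was not tested.

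**Figure D4:**
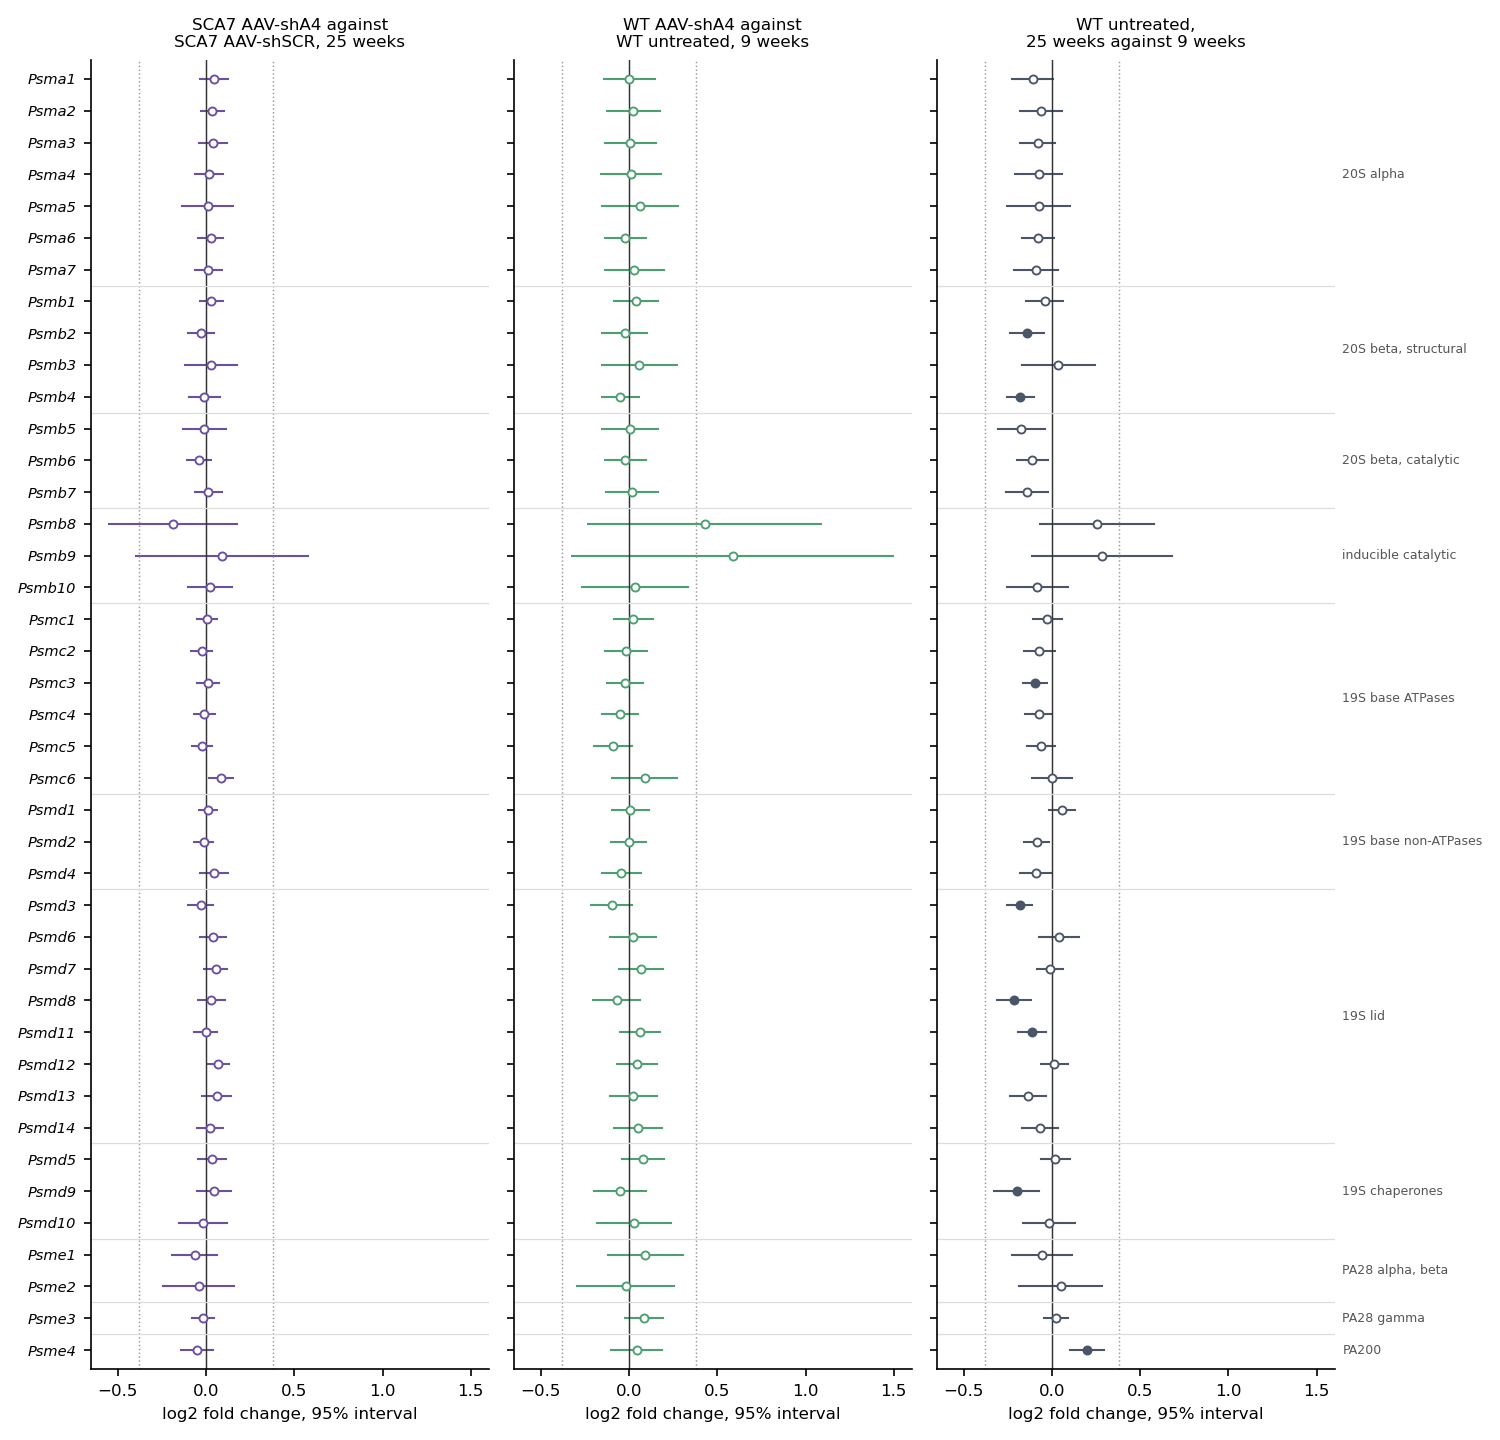
Log2 fold changes of the 41 genes with their 95% intervals for AAV-shA4 against AAV-shSCR in SCA7 mice (left), for AAV-shA4 against no treatment in WT mice of 9 weeks (middle) and for untreated WT mice of 25 against 9 weeks (right). Filled points have an adjusted p under 0.05 and dotted lines mark a fold of 1.3. No point is filled on the left or in the middle, where the intervals of Psmb8 and Psmb9 are wide, and on the right 7 points are filled below 0 and 1 above 0.

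Seen by mouse over all 20 cerebella, the level of each gene relative to the mean of the late WT mice lay between -0.31 and 0.32 on the log2 scale for the 36 others and between -0.63 and 1.26 for the immunoproteasome genes. The mice with the highest Psmb8 were SCA7 AAV-shSCR replicate 1 at 6.43 CPM, SCA7 AAV-shA4 replicate 2 at 5.24 CPM, SCA7 AAV-shSCR replicate 2 at 4.96 CPM and WT AAV-shA4 replicate 3 at 4.85 CPM, and these were also the 4 mice with the highest Psmb9. Psme1 followed this order only in part. SCA7 AAV-shSCR replicate 1 also had the highest Psme1 of the 20 mice, at 23.95 CPM. Psme1 was at least 19.2 CPM in all 10 SCA7 mice and 18.4 CPM or less in the 10 WT mice. WT AAV-shA4 replicate 3, high in Psmb8, had the highest Psme1 of the 10 WT mice, but it lay below every SCA7 mouse.

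**Figure D5:**
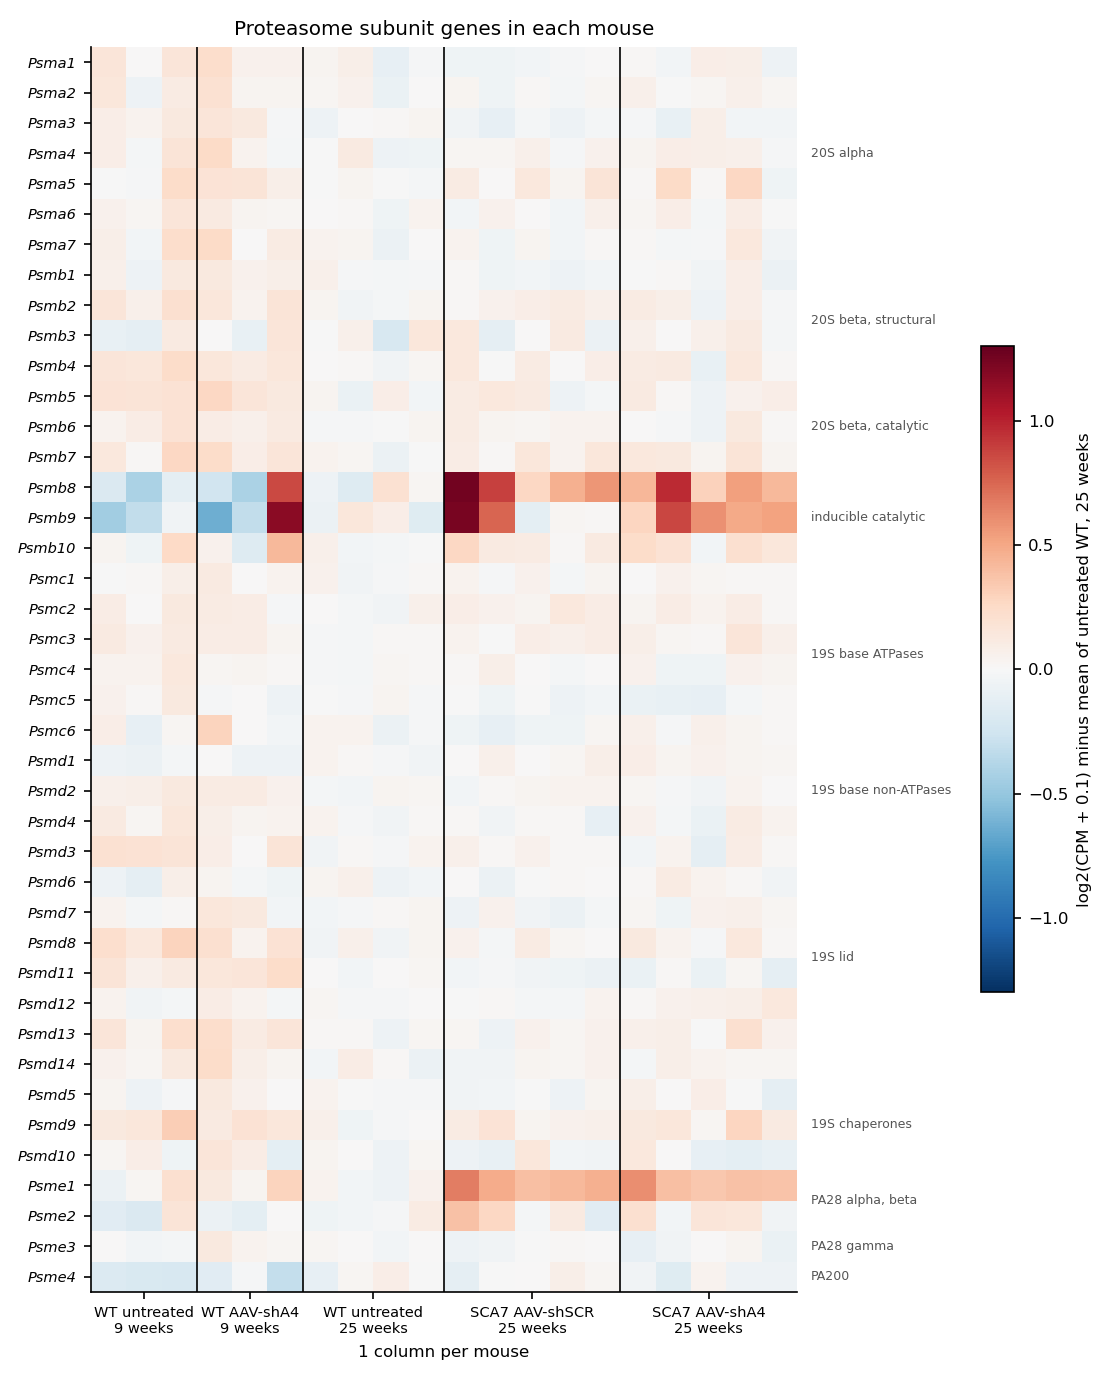
Level of each of the 41 genes (rows, by particle) in each of the 20 mice (columns, by group) as log2 of CPM with 0.1 added, minus the mean of the untreated WT mice of 25 weeks, on a colour scale from -1.3 to 1.3. Strong colour is seen in the rows of Psmb8 and Psmb9 and, in the SCA7 mice, Psme1, while the rows of the other particles stay within -0.31 to 0.32.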

How the data were processed

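Whole cerebella of 20 mice were sequenced as stranded mRNA libraries with single 50-base reads. According to the methods and the submitters' processing notes, the authors removed adapters (cutadapt 1.10) and ribosomal reads (Bowtie2 2.2.8), aligned the rest to mm10 with STAR 2.5.3a and counted reads per gene with HTSeq 0.6.1p1. The values are the raw read counts per gene as deposited by the authors, not normalized, and whether strand was used in counting is not given in the sources used here. The table holds 55401 Ensembl genes, of which 260, with 0.00231% of counts, had no symbol in GENCODE vM21.

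Counts of protein-coding genes with enough reads (filterByExpr, minimum 10 per library and 15 in all) were scaled by TMM and tested with edgeR 4.0.16 (quasi-likelihood, R 4.3.3) in 3 fits: the 14 late libraries, the 6 early libraries and the 7 untreated WT libraries. All 41 genes were tested in each. P-values were adjusted by Benjamini-Hochberg over all genes tested, and a call is an adjusted p under 0.05. A fold of 1.3 was an added limit. CPM are TMM-scaled, and log2 ratios carry 0.1 CPM. Depth was 31465586 to 54570503 counts per library, so that a gene at 2 CPM rests on few reads. Intervals are 95%.

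The members, the gene lists and the tests were chosen with earlier results of these data known. Named in the text are the immunoproteasome genes and their constitutive counterparts in every comparison, every member called, and per comparison the 2 other members with the smallest p in each direction. Genes named for other reasons, such as those whose groups did not overlap, were chosen after their values were seen. Alternatives were the scaling, the count filter, robust fitting, DESeq2 1.42.0, the fold limit, all 20 libraries in 1 fit, the replicate number as a block and leaving out each mouse. The fits were tested on simulated data. The results of a few genes of the lists are not reported here.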

Additional observations from a re-analysis of the deposited data

Results flagged for a closer look

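In 8 of 135 groups of 4 or 5 mice tested (5.93%), 1 mouse stood apart from the rest of its group by Dixon's criterion, which flags about 1 group in 20 by chance. Among the immunoproteasome genes, Psme1 of SCA7 AAV-shA4 replicate 1 was at 22.9 CPM when the other 4 mice were at 19.2 to 19.9 CPM, and the log2 ratio of Psmb8 to Psmb5 of SCA7 AAV-shA4 replicate 2 was -1.49 when the others were at -2.13 to -1.97. Both lay on the side away from the WT mice. The other 6 were in constitutive genes. In untreated WT mice of 25 weeks, Psmb1 of replicate 1 was at 100.1 CPM (others 94.0 to 94.8), and in replicate 3 Psmc5 was at 171.3 CPM (others 164.7 to 165.6) and Psmd13 at 55.2 CPM (others 58.3 to 58.9). In SCA7 mice given AAV-shSCR, Psmb6 of replicate 1 was at 95.8 CPM (others 90.6 to 91.8), Psmd13 of replicate 2 at 55.2 CPM (others 58.7 to 60.1) and Psmd10 of replicate 3 at 13.3 CPM (others 11.1 to 11.7). The groups of 3 early mice were too small for this criterion.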

How the results depend on the processing

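Under the alternatives, 26 of 1085 values of single members and 12 of 205 values of ratios changed sign, all where single mice were left out. The count of members called was 2 under all 7 other settings for SCA7 AAV-shSCR against WT and 0 in every fit for AAV-shA4 against AAV-shSCR and for the early experiment. For SCA7 AAV-shA4 against WT it was 2 with DESeq2, which added Psmb8, and 1 to 3 when single mice were left out, where Psmb8, Psmb9, Psmb10 and Psmd9 entered. For WT mice of 25 against 9 weeks it was 4 to 10 without single mice, 13 with all 20 libraries in 1 fit and 0 with the fold limit.

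The correlation of deviations of same-numbered mice ran from -0.224 to 0.539 and passed 0.1 in at most 2 of 4 pairs of a comparison. The largest were 0.539 and 0.26, for replicates 1 and 2 of SCA7 AAV-shA4 with WT mice. Mice of different numbers were not correlated, so whether some same-numbered mice shared a batch was not tested. With the replicate block the comparison of 25 with 9 weeks kept 1 call, Psmd3, while the calls over all genes went from 3419 to 1502, and the other comparisons had 2, 1, 0 and 0 calls, as without it.

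Leaving out single mice turned the sign of small differences. For AAV-shA4 against AAV-shSCR the log2 fold change ranged from -0.035 to 0.38 for Psmb9, -0.0022 to 0.069 for Psmb10, -0.039 to 0.017 for Psmb5, -0.0069 to 0.029 for Psmb7 and -0.11 to 0.030 for Psme2, and the ratios from -0.0085 to 0.046 (Psmb10 to Psmb7) and -0.069 to 0.028 (Psme1 to Psme2). For AAV-shA4 against WT, Psmb6 ranged from -0.013 to 0.035. In the early experiment the ranges were -0.10 to 0.67 for Psmb8, -0.23 to 0.91 for Psmb9, -0.14 to 0.17 for Psmb10, -0.038 to 0.032 for Psmb5, -0.053 to 0.021 for Psmb6, -0.041 to 0.080 for Psmb7 and -0.085 to 0.10 for Psme2, and the ratios ranged from -0.12 to 0.53 (Psmb8 to Psmb5), -0.17 to 0.71 (Psmb9 to Psmb6) and -0.16 to 0.10 (Psmb10 to Psmb7). Between 25 and 9 weeks they were -0.15 to 0.0088 for Psmb10, -0.12 to 0.025 for Psme1 and -0.017 to 0.17 for Psme2. None of these was called in the comparison in question.

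Levels of a particle depend on the transcript length chosen. In the late WT mice, the longest protein-coding transcript gave, in CPM per kb, 39.8 for the alpha ring, 52.0 for the structural and 65.0 for the constitutive catalytic beta genes, 4.87 for the inducible genes, 71.1, 48.8, 43.0 and 10.6 for the ATPases, other base genes, lid and chaperones, and 10.2, 43.3 and 14.4 for PA28 alpha and beta, PA28 gamma and PA200. The median length gave 54.1, 72.7, 59.6, 7.94, 114, 162, 76.7, 31.6, 16.3, 165 and 160 in the same order. The choice of length was added after seeing the data.

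Psmb9 had 36 to 130 reads per library. In SCA7 AAV-shSCR its CV between mice was 46.4%, beside 11.2% from counting alone.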
